A study of Mus musculus with 24 samples.

Results

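The genes of the cytosolic translation initiation factors (eIF1 to eIF6) and of the elongation factor eEF1 were followed across 24 mouse brain tumours. They were chosen by name: every protein-coding gene whose symbol starts with Eif1 to Eif6 or with Eef1, leaving out the eIF2 kinases (Eif2ak). The rule gave 60 genes of the 49315 gene identifiers counted, and used no measured value. Of these, 58 had enough reads to be tested. Eif2s3y, the Y-linked copy of the eIF2 gamma subunit, had 0 counts in all 24 libraries, and Eif4e1b, an eIF4E relative best known from oocytes, had 8 counts in all.

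The tumours were grown from CT-2A-dmEGFRvIII-Firefly Luciferase (CT-vIII) cells, a mouse glioma line transduced with mouse EGFR variant III and firefly luciferase, so all groups share 1 transduced line. From day 6 after implantation an osmotic pump infused the tumour for 72 h at 0.5 µl per hour (convection-enhanced delivery), and the pump was removed on day 9. Tumours were taken at pump removal (day 0) or 3 days later (day 3), with 3 tumours for each of 4 treatments on each day. RNA was polyA-selected from flash-frozen tissue, and the labels give neither the strain, age nor sex of the mice.

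Vehicle tumours received MSA-PBS with a rat IgG2a control antibody. D2C7-IT tumours received 0.2 µg of an immunotoxin, an antibody fragment against EGFR and EGFRvIII joined to a truncated Pseudomonas exotoxin. αCD40 tumours received an antibody (clone FGK4.5) against CD40, a receptor of antigen-presenting cells, for which the labels give a dose range and not the dose of each tumour. The fourth treatment was D2C7-IT + αCD40, called the combination here. The question asked of these genes is whether their transcripts differed where a toxin that blocks elongation had been infused.

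As background, initiation begins when eIF2, carrying GTP and the initiator tRNA, joins the small ribosomal subunit together with eIF1, eIF1A, eIF3 and eIF5. The eIF4F complex (the cap-binding eIF4E, the scaffold eIF4G and the helicase eIF4A) brings this assembly to the mRNA, and the 4E-binding proteins hold eIF4E back. During elongation eEF1A delivers each aminoacyl-tRNA, the eEF1B subunits reload it with GTP, and eEF2 moves the ribosome on. Pseudomonas exotoxin ADP-ribosylates the diphthamide residue of eEF2, which stops this last step. Neurons and muscle are known to use eEF1A2, encoded by Eef1a2, in place of the widely used eEF1A1, encoded by Eef1a1.

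The promoter stretches of 5 members are printed, picked after the results were seen. Eef1a1 and its neuronal counterpart Eef1a2, and Eif4a1 and its paralogue Eif4a2, went opposite ways between libraries. Eef1b2, an eEF1B exchange subunit gene, had the smallest p of any member. A link between promoter sequence and level was not tested. Each printed stretch is the 150 bases before the RefSeq start site (GRCm38.p6), 5′ to 3′ on the strand of the gene, with matches to a searched motif in capitals. They lie at chr9:78481725-78481874 (minus strand), chr2:181157016-181157165 (minus), chr11:69672424-69672573 (minus), chr16:23107318-23107467 (plus) and chr1:63176681-63176830 (plus), in the order printed. The genes are Eef1a1 (ENSMUSG00000037742, chr9:78478449-78489151), Eef1a2 (ENSMUSG00000016349, chr2:181147653-181157014), Eif4a1 (ENSMUSG00000059796, chr11:69666936-69672423), Eif4a2 (ENSMUSG00000022884, chr16:23107444-23114136) and Eef1b2 (ENSMUSG00000025967, chr1:63176825-63180486) in GENCODE M21, so the Eef1a1 stretch falls inside the span annotated for the gene there and those of Eif4a2 and Eef1b2 reach into theirs.
Eef1a1: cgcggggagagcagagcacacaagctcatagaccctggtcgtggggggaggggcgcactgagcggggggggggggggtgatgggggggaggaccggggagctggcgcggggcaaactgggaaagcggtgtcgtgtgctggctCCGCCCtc
Eef1a2: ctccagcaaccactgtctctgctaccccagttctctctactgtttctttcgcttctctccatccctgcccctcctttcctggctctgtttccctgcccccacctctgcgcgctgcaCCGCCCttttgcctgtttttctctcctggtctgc
Eif4a1: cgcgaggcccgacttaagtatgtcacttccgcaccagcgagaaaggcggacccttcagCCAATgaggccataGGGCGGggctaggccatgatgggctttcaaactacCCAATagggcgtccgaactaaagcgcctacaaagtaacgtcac
Eif4a2: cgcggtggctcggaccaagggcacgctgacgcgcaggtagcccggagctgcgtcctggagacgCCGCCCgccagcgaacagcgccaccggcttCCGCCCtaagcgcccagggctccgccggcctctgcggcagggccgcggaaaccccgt
Eef1b2: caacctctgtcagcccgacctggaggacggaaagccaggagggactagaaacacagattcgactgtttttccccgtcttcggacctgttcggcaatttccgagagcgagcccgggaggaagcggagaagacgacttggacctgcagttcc

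The Eef1a2 stretch was 79.3% pyrimidine, against 33.3% for Eef1a1. The Eif4a1 stretch held 2 CCAAT boxes and 1 GC box, and that of Eif4a2 held 2 GC boxes and no CCAAT box. Short motifs were searched on both strands of the full RefSeq windows, 250 bases before to 50 after each start. Of the 44 members in the RefSeq promoter table, 34 held a GC box (GGGCGG), which 35.7% of all 32851 windows held. An ETS-type match (CCGGAAG) was in 16 members, and 8.86% of all windows held it. The E-box CACGTG was in 10 members and 7.15% of windows. A CCAAT box was in 14 members and 37.4% of windows. A TATAA match was in 6 members and 24.9% of windows. A member was counted when any of its windows held the motif and the shares are per window, so the numbers are descriptions and not a test.

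Compared per kilobase of exon by the median of 21 libraries, the eEF1A genes Eef1a1 and Eef1a2 were the most abundant members. Other genes named for eEF1 ranked lower, down to 58 of 58 for Eef1akmt3. This ranking leaves out 3 day 3 libraries described below. In those 3 Eef1a2 measured 234 to 412 CPM, against 746 to 1208 CPM in the 21. In the day 0 vehicle tumours Eef1a1 stood at 791 ± 102 CPM per kb (CPM are counts scaled to a common library size by TMM; mean ± SD, n = 3). Eef1a2 stood at 516 ± 55.6 CPM per kb. Next came Eif1, whose product guards start codon choice, at 141 ± 12.5, Eif5a, the hypusine-carrying factor, at 116 ± 2.19, the helicase gene Eif4a2 at 99.2 ± 9.06 and Eef1g, an eEF1B subunit, at 91.4 ± 11.1 CPM per kb. The neighbours Eif1 and Eif5a differed by more than their SDs, whereas the ranges set by the SDs of Eif4a2 and Eef1g overlapped. At the low end of the tested members stood Eef1akmt3 (a methyltransferase gene) at 0.0935, Eif3j2 at 0.157 and the 4E-binding protein gene Eif4ebp3 at 1.21 CPM per kb. Exon lengths pool all annotated isoforms, and reads of the many processed copies of Eef1a1 could not be separated, so its level is uncertain. Of all members 13 overlap a gene on the other strand, among them Eef1b2, Eif1b and Eif4a2, and the library kit does not mark strand.

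A set of 3 day 3 libraries stood apart from the other 21: vehicle replicates 2 and 3 and αCD40 replicate 1. Their Egfr level, a readout that includes the transgene of the tumour cells, was 283 to 343 CPM, against 13.1 to 50.8 CPM in the other 21. The summed level of 10 cell cycle markers was 1301 to 1641 CPM in the 3 and 20.2 to 178 CPM in the 21, and all 10 markers were above all 21 libraries. The summed level of 10 neuron markers was 1730 to 2982 CPM against 4582 to 8521 CPM, with 8 of the 10 below all 21 and none at 0 in either set. Of 7 T cell and 6 monocyte and macrophage markers, 4 each were above all 21. None of the 3 libraries came from a tumour given D2C7-IT. In bulk tissue, fewer cells of a type and less RNA per cell cannot be told apart. Library totals ran from 24697576 to 48119840 counts.

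Most translation factor genes were higher in these 3 libraries. The members together took 1.57 to 1.73% of all reads there, against 0.866 to 1.05% in the other 21. Of the 58 tested members, 42 were above all 21 libraries and 5 below, where 26.1% and 18.9% of all genes tested were. Because the 3 were recognised from the data, these are descriptions with no test, and the part of the cell cycle, neuron and immune markers in them was not tested.

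By role, all but Eif3c and Eif3f of the 14 tested genes of eIF3, the large scaffold of the small subunit, lay above. The same held for 7 of 10 genes of eIF2 and its partners, and none of these was below. Of the eIF5, eIF5A, eIF5B and eIF6 genes, 4 of 5 were above. Of the eIF4 and 4E-binding protein genes 10 of 15 were above and 2 below. The genes of eEF1 and its methyltransferases split, with 6 of 9 above and 1 below. The genes of eIF1 and eIF1A gave 3 above and 1 below of 5.

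Eef1a1 measured 4557 and 4173 CPM in vehicle replicates 2 and 3 and 5348 CPM in αCD40 replicate 1, against 1679 to 2378 CPM in the 21 others. Eef1b2 measured 329 to 388 CPM in the 3, against 97.5 to 137 CPM. Eef1g measured 647 to 722 CPM in the 3, against 197 to 271 CPM. The widest gap was that of Eif4ebp1, the gene of the main mTOR-regulated brake on eIF4E, at 57.2 to 70.1 CPM against 3.47 to 11.96 CPM. The 5 genes below all 21 were Eef1a2, Eif4a2, Eif5a2, Eif4g3 and Eif1b. Each is a paralogue of a member that was above all 21 (Eef1a1, Eif4a1, Eif5a, Eif4g1 and Eif1).

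**Figure D1:**
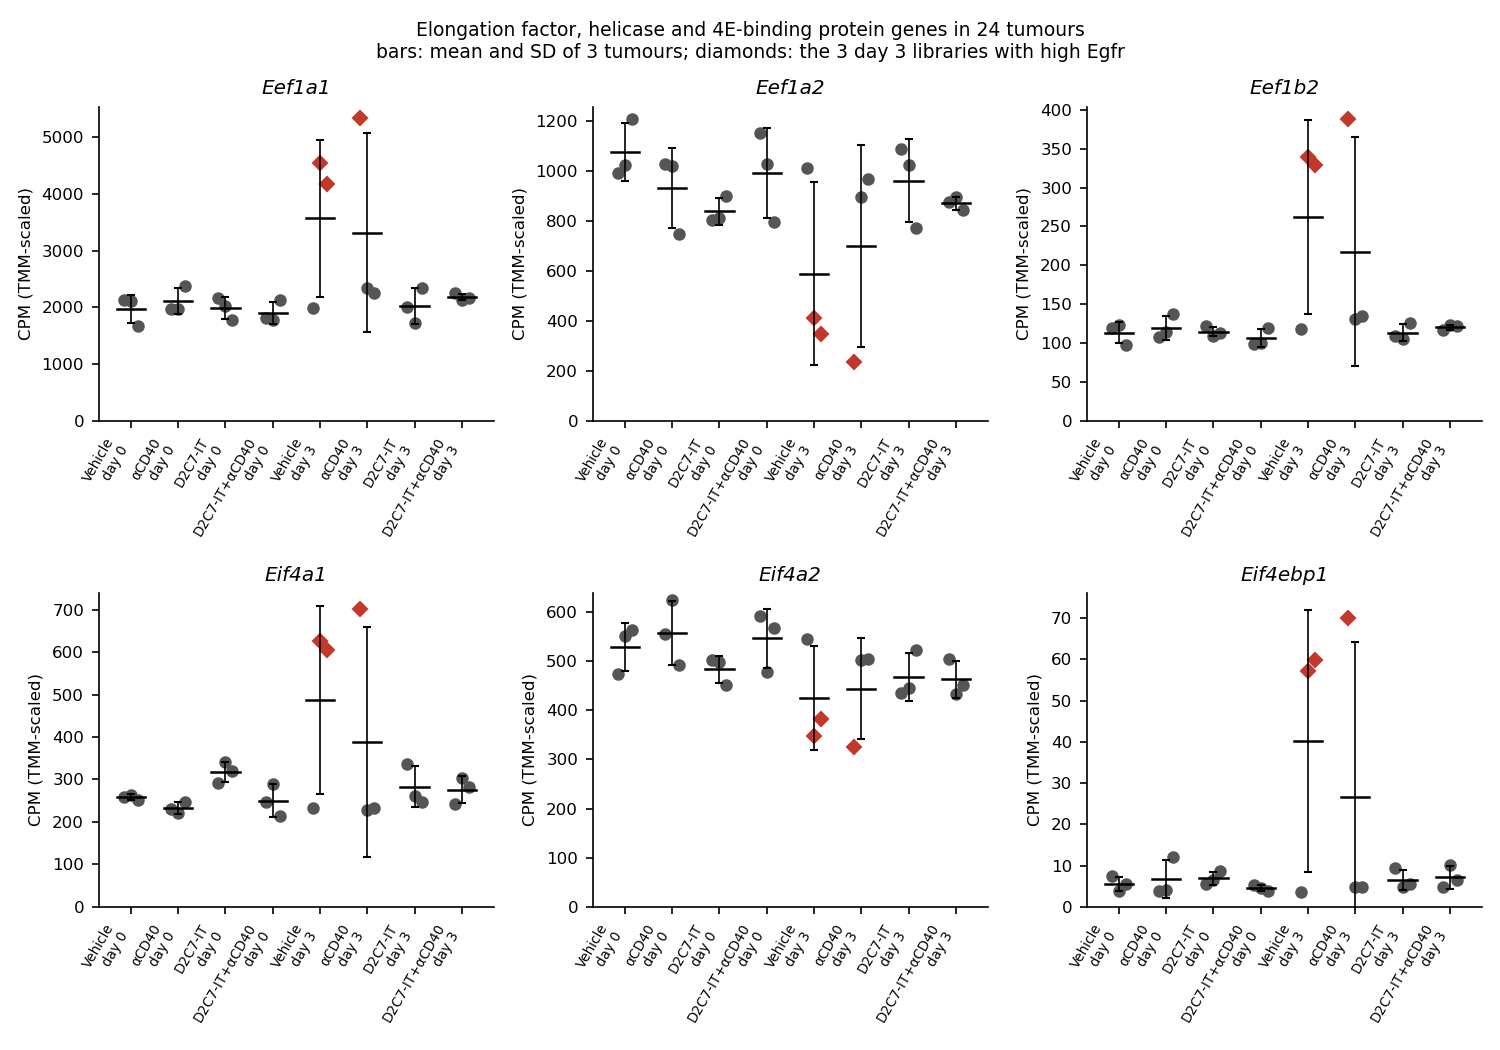
Level (TMM-scaled CPM, linear axis from 0) of 6 members in each tumour by treatment and day, with the mean and SD of 3 tumours; diamonds mark the 3 day 3 libraries with high Egfr, and the SD bar of Eif4ebp1 in day 3 αCD40 tumours is cut at 0. The diamonds of Eef1a1 (4173 to 5348 CPM) and Eif4ebp1 lie above every other library and those of Eef1a2 (234 to 412 CPM) and Eif4a2 below.

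The paralogue pairs show this as ratios of levels per kb, which do not depend on library size. Eef1a1 to Eef1a2 was 9.24, 10.1 and 19.1 in the 3 libraries and 1.16 to 2.66 in the 21. Eif4a1 to Eif4a2, the paired helicase genes, was 1.95 to 2.66 in the 3 and 0.436 to 0.956 in the 21, so Eif4a2 was the more abundant of the pair in all 21 and Eif4a1 in the 3. Eif5a to Eif5a2 was 47.8 to 72.9 against 8.09 to 14.7.

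The scaffold pair Eif4g1 to Eif4g3 stood at 5.00 to 6.10 in the 3 libraries and 1.501 to 2.38 in the others. Eif1a to Eif1ax stood at 0.983 to 1.202 against 0.333 to 0.592, through Eif1a alone, since Eif1ax overlapped (127 to 139 CPM against 117 to 177 CPM). Eif4ebp1 to Eif4ebp2 stood at 3.07 to 3.56 against 0.388 to 1.34, and Eif1 to Eif1b at 2.81 to 3.30 against 1.58 to 2.44. All 7 ratios with both genes measured thus separated the 3 libraries from the 21. Ratios of other gene pairs were not computed, and 26.1% and 18.9% of all genes tested lay above or below all 21 as single genes. The separation is therefore not shown to be particular to these pairs. The eighth pair, Eif2s3x and Eif2s3y, gives no ratio, since Eif2s3y had 0 counts. The Y-linked markers Ddx3y, Uty and Kdm5d were also near 0, with a sum of at most 0.0271 CPM in any library. Xist measured 518 CPM or more in every library. Eif2s3x was at 164 to 173 CPM in the 3 and 61.9 to 83.1 CPM in the 21.

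**Figure D2:**
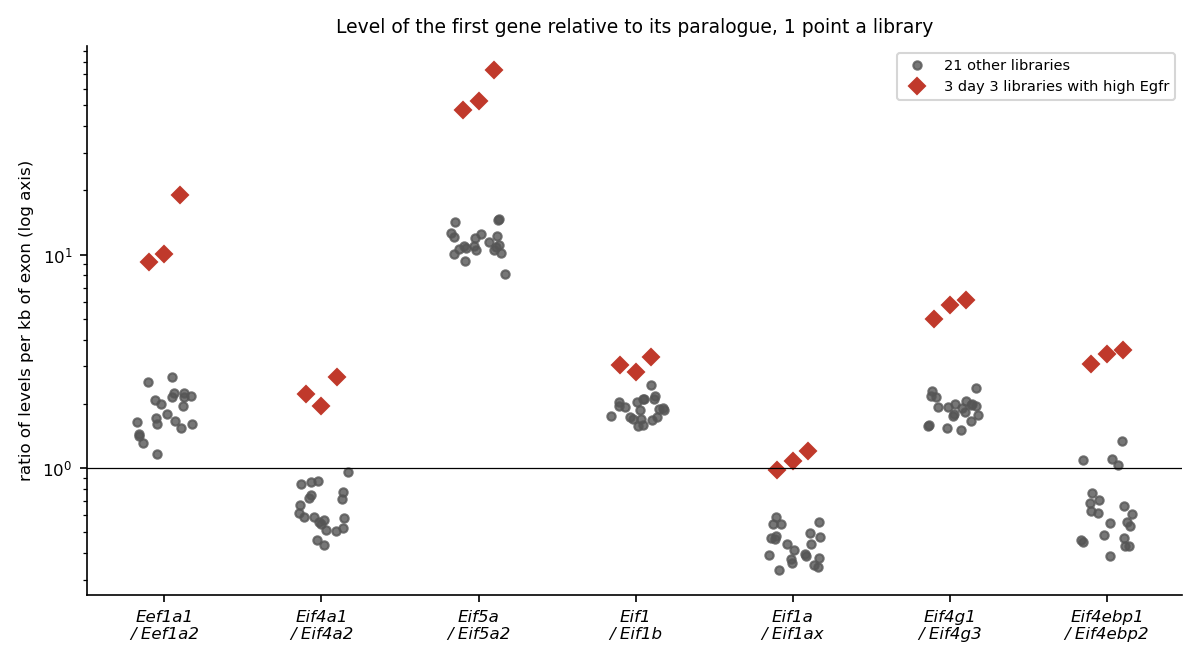
Ratio of the levels per kb of exon of 7 paralogue pairs (log axis), 1 point for each library; circles are the 21 libraries and diamonds the 3 day 3 libraries with high Egfr. The sets do not overlap in any pair, and the gap is widest for Eef1a1 to Eef1a2 and Eif5a to Eif5a2.

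At pump removal no member passed the test after any treatment. With edgeR's quasi-likelihood test adjusted over all 22280 genes tested, 0 of 58 members were called for D2C7-IT, αCD40 or the combination against vehicle. At an unadjusted p under 0.05 there were 0 members in each, where 4.52%, 1.36% and 3.03% of all genes were. With the 3 high-Egfr day 3 libraries left out of the pooled spread, edgeR still called 0, but 4 members were higher and 1 lower at that level for D2C7-IT (6.93% and 2.7% of all genes). The 5 were Eif3a, Eif4g1, Eif2s1, Eif4a1 and, lower, Eef1a2. For αCD40 there was 1 in each direction (2.04% and 0.964%), and for the combination 2 higher and 0 lower (3.55% and 2.57%). DESeq2 also called 0 in each, with 0 (D2C7-IT), 1 (αCD40) and 1 (combination) at an unadjusted p under 0.05. The background of edgeR's test was as low, with 0.0808% of all genes called for D2C7-IT and 0% for the other treatments. Shares of all genes for DESeq2 are not given. Median log2 fold changes of the members were 0.02 for D2C7-IT, -0.05 for αCD40 and -0.03 for the combination, beside -0.01, 0.00 and 0.02 over all genes tested. The 3 comparisons share the vehicle tumours.

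For D2C7-IT at day 0, 10 members were higher in all 3 treated tumours than in any vehicle tumour, against 11% of all genes tested. They came from 5 of the 6 roles: Eif1a; Eif2s1 and Eif2b3; Eif3a, Eif3c and Eif3d; Eif4a1, Eif4b and Eif4g1; and Eif6. Eef1a2 and the cap-binding protein gene Eif4e2 were lower in all 3, against 6.6% of all genes. These shares are not clearly above the background.

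Eif3a, the gene of the largest eIF3 subunit, had the smallest p. It measured 284, 310 and 300 CPM in the D2C7-IT tumours and 236, 217 and 215 CPM in the vehicle tumours, a log2 difference of 0.42 ± 0.31 (SE). The groups did not overlap, yet the adjusted p of edgeR's test was 1. With the 3 high-Egfr libraries left out of the pooled spread, the difference was 0.43 ± 0.12, with an adjusted p of 0.187.

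Eif4g1, the eIF4F scaffold gene, measured 410, 427 and 408 CPM after D2C7-IT and 381, 312 and 339 CPM in vehicle tumours, a log2 difference of 0.27 ± 0.28. Eif4a1 measured 292, 341 and 319 CPM against 259, 264 and 251 CPM, a log2 difference of 0.30 ± 0.36. Eif2s1, the gene of the eIF2 alpha subunit that the stress kinases phosphorylate, measured 47.3, 52.8 and 52.9 CPM against 42.0, 38.5 and 42.0 CPM. In all 3 genes each D2C7-IT tumour lay above each vehicle tumour, and the adjusted p of edgeR's test was 1 for each.

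Eef1a2 measured 803, 814 and 899 CPM after D2C7-IT and 994, 1023 and 1208 CPM in vehicle tumours, a log2 difference of -0.36 ± 0.40 with an adjusted p of 1. Eef1a1 overlapped fully, at 2161, 2022 and 1780 CPM against 2133, 2107 and 1679 CPM. The D2C7-IT tumours of day 0 also had summed cell cycle markers of 99.7 to 117 CPM, where the vehicle tumours had 20.7, 44.9 and 171 CPM. Summed neuron markers were 4909 to 6905 CPM after D2C7-IT and 5610 to 8338 CPM in vehicle tumours. In the same order, endothelial markers were 331 to 376 CPM and 214 to 256 CPM. Neutrophil markers were 40.8 to 44.7 CPM and 13.4 to 33.6 CPM, and monocyte and macrophage markers 203 to 456 CPM and 48.3 to 239 CPM. Muscle markers were lower without overlap, at 7.27 to 9.72 CPM and 10.0 to 15.3 CPM, and the lists not given here overlapped. The part of any of these in the differences was not tested.

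**Figure D3:**
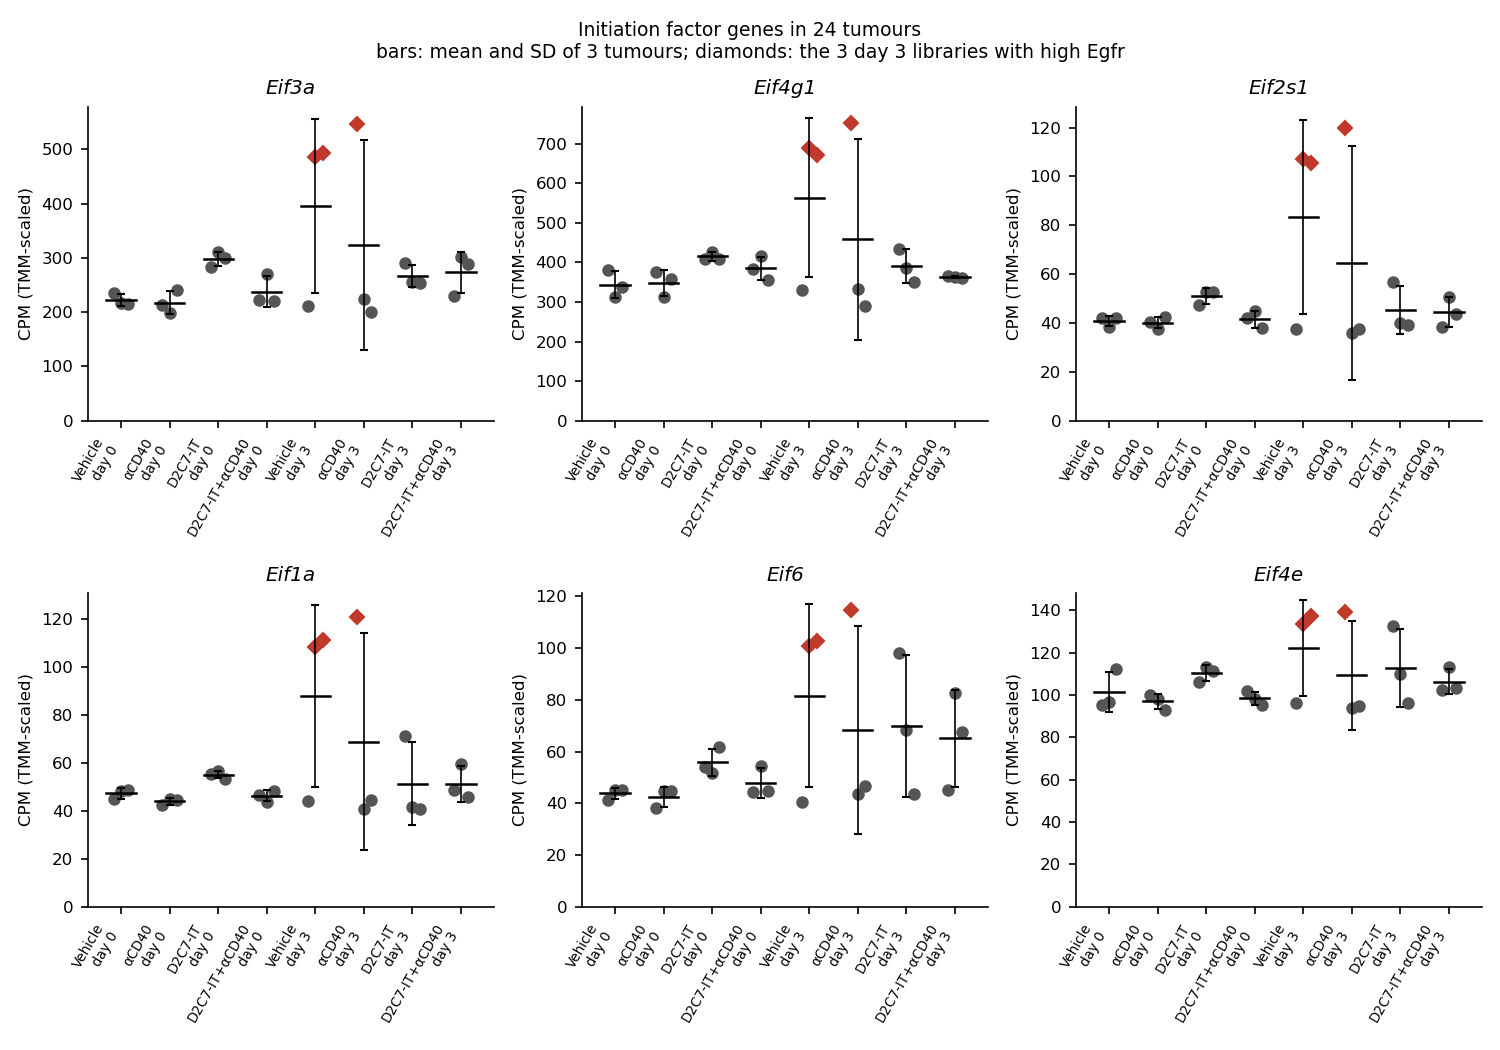
Level (TMM-scaled CPM, linear axis from 0) of 6 initiation factor genes in each tumour, with the mean and SD of 3 tumours; diamonds mark the 3 day 3 libraries with high Egfr. The D2C7-IT tumours of day 0 lie above the day 0 vehicle tumours for Eif3a, Eif4g1, Eif2s1, Eif1a and Eif6 and overlap with them for Eif4e. Eif6 spreads widely in every group at day 3, in vehicle and αCD40 tumours through the diamonds.

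With αCD40 at day 0, 2 members were higher without overlap (3.99% of all genes were) and 7 lower (3.47%). The 7 were Eif1ad, Eif3b, Eif3d, Eif3i, Eif4a1, Eif4a3 and Eif5a. Eif4a1 measured 229, 221 and 247 CPM after αCD40, just under the lowest vehicle value of 251 CPM. With the combination, Eif2b3, Eif4b and Eif5a2 were higher without overlap (5.45% of all genes were), and Eif3b and Eif4e2 lower (4.02%).

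Eif4b, whose product stimulates the eIF4A helicase, lay above all 3 vehicle tumours in every treatment at day 0. It measured 211, 215 and 203 CPM in vehicle tumours, and 236 ± 6.04, 227 ± 2.69 and 238 ± 5.61 CPM (SD, n = 3) after αCD40, D2C7-IT and the combination. The differences of 0.17, 0.11 and 0.18 on the log2 scale share the same 3 vehicle tumours, and the adjusted p of edgeR's test was 1 for each.

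The combination was then set against each agent alone at day 0, and no member passed. edgeR called 0 of 58 against D2C7-IT and 0 against αCD40, with 0 at an unadjusted p under 0.05 in both (2.77% and 0.884% of all genes), and DESeq2 called 0 in both with the same count of 0. The background was 0% of all genes in each. Without the 3 libraries 0 were called, with 0 higher and 4 lower at that unadjusted level against D2C7-IT (3.25% and 4.13%) and 1 higher and 0 lower against αCD40 (0.935% and 1.06%). Against D2C7-IT alone, 12 members were lower without overlap (8.53% of all genes were) and 3 higher (6.07%). Eif3a, at 222, 271 and 221 CPM in the combination, was among the 12, as were Eif4a1 (247, 290 and 214 CPM) and Eif2s1 (42.0, 44.9 and 37.8 CPM). In each of them the highest combination value lay just under the lowest D2C7-IT value. Against αCD40 alone, 2 members were higher without overlap (2.67%) and 0 lower (1.92%).

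Taking both toxin-treated groups against both others at day 0, called the D2C7-IT main effect here, edgeR called 0 of 58 members, with 0 at an unadjusted p under 0.05 (3.5% of all genes). DESeq2 gave the same 2 counts, and edgeR called 0.0314% of all genes. Without the 3 libraries edgeR called 0, with 5 higher and 0 lower at an unadjusted p under 0.05 (4.88% and 2.12%). Eif2b3, a subunit gene of the eIF2 exchange factor eIF2B, alone did not overlap: all 6 toxin-treated tumours measured 13.7 to 15.0 CPM and the 6 others 11.1 to 13.6 CPM (0.238% of all genes were higher without overlap and 0.0808% lower). Its log2 difference was 0.22 ± 0.15 with an adjusted p of 1.

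At day 3 the same main effect was the only comparison of the 17 in which edgeR called any member. It called 12 of 58, all lower in the toxin-treated tumours, beside 18.2% of all genes called in either direction and 13.1% called lower (5.11% higher). The share of members called is near that of all genes in either direction. The median log2 fold change was -0.29 for the members and 0.00 for all genes tested, with 50 of 58 members lower. Without the 3 high-Egfr libraries, all of which stand on the side without toxin, edgeR called 0 members and the median was 0.12.

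The eEF1 genes, grouped with the eEF1 methyltransferase genes, made up 5 of the 12. Eef1b2 measured 117, 340 and 329 CPM in vehicle tumours and 388, 130 and 134 CPM in αCD40 tumours. It measured 109, 105 and 125 CPM after D2C7-IT and 117, 123 and 121 CPM after the combination. The toxin-treated tumours lay together with vehicle replicate 1 and αCD40 replicates 2 and 3, and only the 3 high-Egfr libraries were far from them. By edgeR's test Eef1b2 fell by 1.03 ± 0.25 on the log2 scale (adjusted p = 0.0188), and by 0.09 ± 0.10 (adjusted p = 0.734) without the 3 libraries.

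Eef1g measured 222, 647 and 703 CPM in vehicle, 722, 234 and 260 CPM in αCD40, 235, 199 and 239 CPM in D2C7-IT and 254, 237 and 243 CPM in combination tumours. It fell by 0.98 ± 0.26 (adjusted p = 0.023, edgeR), and without the 3 libraries the difference was 0.01 ± 0.11. Eef1a1 measured 1987, 4557 and 4173 CPM in vehicle and 5348, 2346 and 2261 CPM in αCD40 tumours, and 2013, 1722 and 2340 CPM after D2C7-IT and 2251, 2139 and 2171 CPM after the combination. It fell by 0.71 ± 0.22 (adjusted p = 0.0338, edgeR), and without the 3 libraries the difference was -0.01 ± 0.12. All 3 genes had the same arrangement of libraries, with the groups overlapping. Eef1d, a further exchange subunit gene, fell by 0.64 ± 0.19 and the methyltransferase gene Eef1akmt2 by 0.35 ± 0.11. The differences were 0.06 and -0.20 without the 3 libraries.

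Of the eIF4 genes 5 were called: Eif4ebp1, Eif4ebp2, Eif4enif1, Eif4g2 and Eif4a3. Eif4ebp1 had the largest difference of any member. It measured 3.47, 57.2 and 59.8 CPM in vehicle, 70.1, 4.77 and 4.77 CPM in αCD40, 9.34, 4.74 and 5.44 CPM in D2C7-IT and 4.82, 10.1 and 6.46 CPM in combination tumours. It fell by 2.26 ± 0.65 (adjusted p = 0.0275, edgeR), and without the 3 libraries it was higher in toxin-treated tumours, by 0.75 ± 0.39 (adjusted p = 0.425). Vehicle replicate 1 was the lowest of all 24 libraries. Eif4g2, a scaffold relative that does not bind eIF4E, fell by 0.60 ± 0.20, and Eif4a3, a helicase of the exon junction complex, by 0.44 ± 0.14. These were 0.06 and 0.05 without the 3 libraries. Eif4enif1, which encodes an eIF4E transporter, fell by 0.48 ± 0.16, and without the 3 libraries its difference was 0.00. For Eif4ebp2 that value was 0.05.

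The remaining called members were Eif5a, which fell by 0.74 ± 0.24, and Eif3m, which fell by 0.31 ± 0.10. Leaving out the 3 libraries gave differences of 0.12 and -0.03. No gene of eIF1 and eIF1A or of eIF2 and its partners was called. At an unadjusted p under 0.05, 3 members were higher and 31 lower, where 12% and 23.2% of all genes were. The 3 were Eif5a2 (0.44), Eif4g3 (0.35) and Eif1b (0.27), all among the genes that were low in the 3 high-Egfr libraries. Eef1a2, at 1012, 412 and 346 CPM in vehicle and 1087, 1024 and 773 CPM in D2C7-IT tumours, had a main effect of 0.51 that did not pass edgeR's test either.

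The count of called members moved with every day 3 library left out. It was 37 without vehicle replicate 1 and 27 without αCD40 replicate 2 or 3, the low-Egfr libraries of the side without toxin. It was 0 without vehicle replicate 2 or 3 or αCD40 replicate 1. Among toxin-treated tumours it was 0 without D2C7-IT replicate 1 or 2, 7 without D2C7-IT replicate 3, and 2, 0 and 1 without combination replicates 1, 2 and 3. With only the day 3 libraries in the fit it was 0. The share of all genes called in each of these fits is not given, so the counts do not set the members apart from other genes.

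In the 21 libraries the direction of most members turned. There 47 of 58 were higher in toxin-treated tumours and 11 lower, none was called, and 15 had an unadjusted p under 0.05, all higher, beside 9.76% of all genes higher at that level and 3.29% lower. Vehicle then has 1 library, whose spread is taken from the other groups. Eef1akmt3 is 1 of the 15, but its fitted difference rests on a count of 0 in vehicle replicate 1 and gives no fold. Eif3a was higher by 0.36 ± 0.11 (adjusted p = 0.191, edgeR), at 211 CPM in vehicle replicate 1, 224 and 200 CPM in αCD40 replicates 2 and 3, and 230 to 302 CPM in the 6 toxin-treated tumours. Those 6 all lay above the 3. At day 0 the D2C7-IT tumours lay above vehicle, but the combination tumours overlapped with it.

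Eif6, which keeps the large subunit from joining too early, was higher by 0.67 ± 0.22 (adjusted p = 0.22, edgeR) in these 21 libraries. It measured 40.6 CPM in vehicle replicate 1, 43.4 and 46.8 CPM in αCD40 replicates 2 and 3, 98.0, 68.3 and 43.4 CPM in D2C7-IT and 45.1, 82.6 and 67.5 CPM in combination tumours. The groups overlapped, with 4 of the 6 toxin-treated tumours above the range of the others. The other initiation genes among the 15 included Eif4g1 (0.24 ± 0.10), Eif2s1 (0.28 ± 0.12), Eif4a1 (0.28 ± 0.12) and Eif4e (0.21 ± 0.09), none of which passed the adjusted test.

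**Figure D4:**
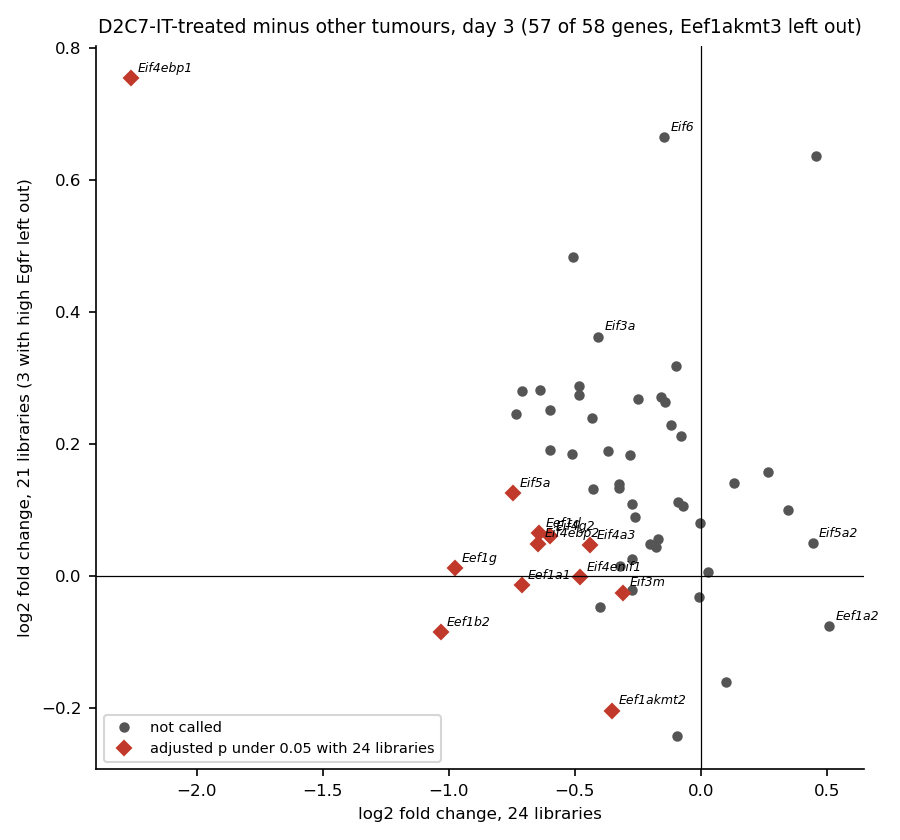
Log2 fold change of 57 of the 58 tested members in toxin-treated minus other day 3 tumours, with all 24 libraries (horizontal axis) and with the 3 high-Egfr libraries left out (vertical axis); diamonds are the 12 members called with 24 libraries, and Eef1akmt3, with 0 counts in 1 library, is not drawn. Most points lie left of 0 and above 0, and Eif4ebp1 moves from -2.26 to 0.75.

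For the single treatments at day 3, no member passed edgeR's test. Against vehicle, edgeR called 0 of 58 for D2C7-IT (background 0% of all genes), with 3 higher and 23 lower at an unadjusted p under 0.05 (9.96% and 18.3% of all genes), and a median of -0.38. For the combination it called 0 (0.0404% of all genes), with 0 higher and 22 lower (7.09% and 16.9%) and a median of -0.36. For αCD40 it called 0 (0%), with 0 higher and 1 lower (1.52% and 0.386%) and a median of -0.16. DESeq2 called 5 for D2C7-IT (Eef1akmt2, Eef1b2, Eef1d, Eef1g and Eif3j2) and 2 for the combination (Eef1akmt2 and Eef1b2). For αCD40 it called 0, with 1 at an unadjusted p under 0.05. The share of all genes that DESeq2 called is not given, so these calls do not set the members apart from other genes.

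In each of these 3 comparisons 1 library changed the count when left out. Without vehicle replicate 1 edgeR called 38 members for D2C7-IT and 34 for the combination, nearly all lower (35 and 32), beside 35.7% and 30.1% of all genes. Without αCD40 replicate 1, it called 14 members lower for αCD40 (5.98% of all genes). With all 3 high-Egfr libraries left out, the medians were 0.15 for D2C7-IT, 0.16 for the combination and 0.03 for αCD40, with 0 called in each. At an unadjusted p under 0.05 there were then 4, 2 and 1 members higher (4.61%, 5.54% and 2.33% of all genes) and 0 lower (1.06%, 1.43% and 0.248%). Groups that did not overlap with vehicle were few: for D2C7-IT Eif2b1 and Eif3m, both lower (5.78% of all genes were lower), and none higher (7.43%). For the combination they were Eif1b, higher (8.06%), and Eef1akmt2, Eif2d and Eif4enif1, lower (7.45%). For αCD40 there was none in either direction (1.58% and 1.13%).

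**Figure D5:**
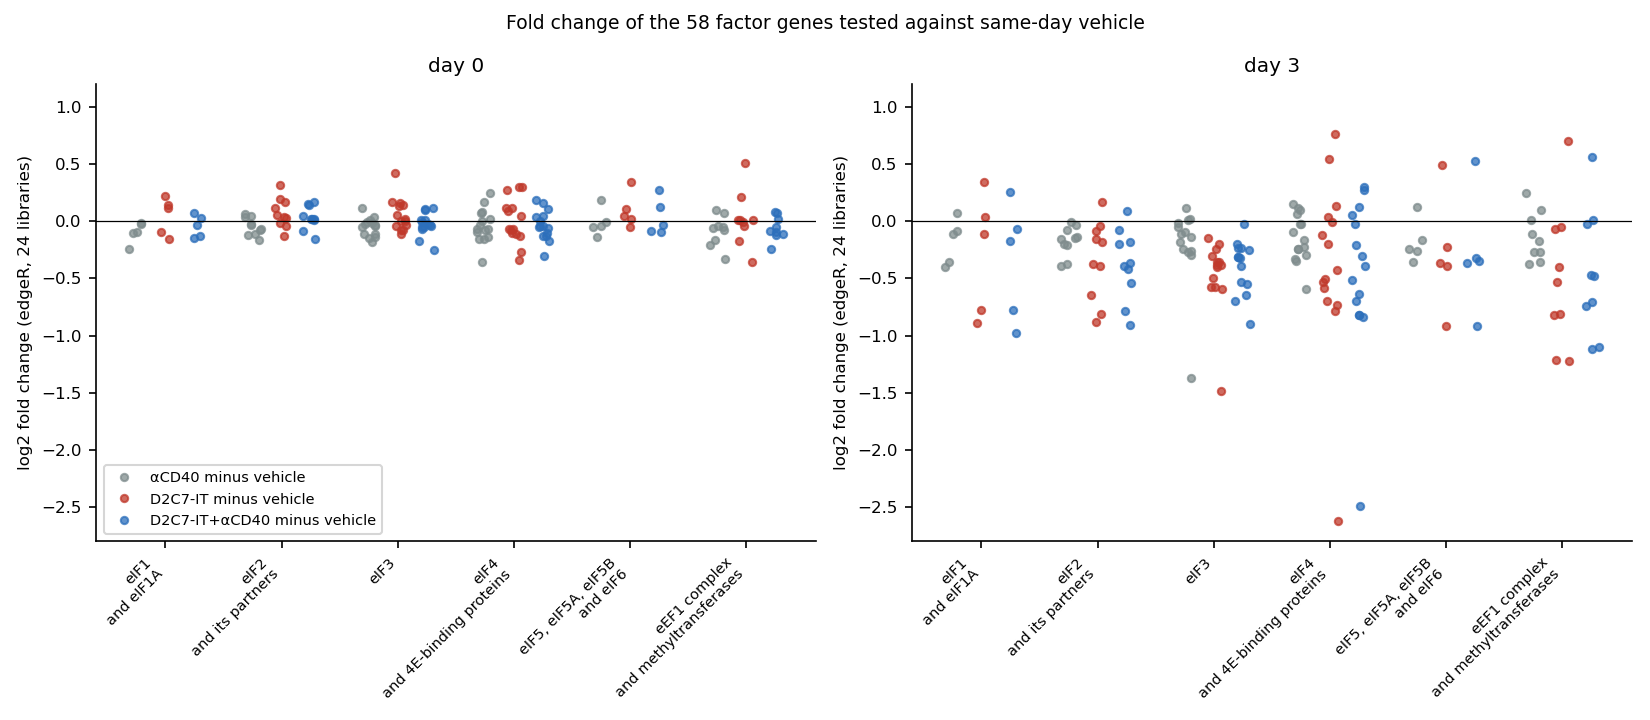
Log2 fold change (edgeR, 24 libraries) of the 58 tested members against same-day vehicle, by role, for αCD40, D2C7-IT and the combination at day 0 (left) and day 3 (right), 1 point a gene. Day 0 values lie close to 0, whereas at day 3 all 14 eIF3 genes lie below 0 for D2C7-IT and the combination; the day 3 vehicle group includes 2 of the 3 high-Egfr libraries.

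No member passed the test between the combination and D2C7-IT alone at day 3. edgeR called 0 of 58 (0% of all genes), with 0 higher and 1 lower at an unadjusted p under 0.05 (1.44% and 1.01%), and DESeq2 called 0 with 0 at that level. The median difference was -0.02 and the range -0.49 to 0.59. Against αCD40 alone edgeR called 0 (0%), with 0 higher and 1 lower (3.66% and 7.42%). DESeq2 called 0 with 3 at an unadjusted p under 0.05, and its share of all genes at that level is not given. The median difference was -0.21 with 24 libraries and 0.09 without the 3.

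From day 0 to day 3 no member passed edgeR's test in any treatment. For the vehicle tumours edgeR called 0 of 58 (0% of all genes), with 34 higher and 2 lower at an unadjusted p under 0.05 beside 22% and 8.15% of all genes, and a median of 0.45. All 14 eIF3 genes were on the higher side. DESeq2 called 5 (Eef1a1, Eef1b2, Eef1g, Eif2s3x and Eif3j2), all higher, and its share of all genes called is not given here either. Without vehicle day 3 replicate 1 edgeR called 43 members (41.1% of all genes), and without the 3 high-Egfr libraries 0, with a median of -0.09.

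In αCD40 tumours the median change from day 0 to day 3 was 0.35, with 0 called (0.0583% of all genes) and 15 higher and 0 lower at an unadjusted p under 0.05 (9.52% and 2.1%). Without the 3 libraries it was 0.00. In D2C7-IT tumours the median was 0.03 with 0 called (0.00449%) and 0 at an unadjusted p under 0.05 (3.51%). In combination tumours it was 0.10, with 0 called (0%) and 0 at that level (4.66%). Without the 3 libraries the medians were 0.03 and 0.12, with 1 higher and 0 lower at an unadjusted p under 0.05 in D2C7-IT tumours (4.17% and 2.74%) and 4 higher and 2 lower in combination tumours (6.5% and 4.12%). DESeq2 called 0 in these 3 comparisons, with 15, 0 and 0 at an unadjusted p under 0.05. Its shares of all genes at that level are not given, so the 15 do not set the members apart from other genes. Neither toxin-treated group holds a high-Egfr library. In combination tumours 12 members were higher at day 3 without overlap (7.07% of all genes were) and 2 lower (6.49%). They include Eif2s2, the gene of the eIF2 beta subunit, at 77.8, 109 and 95.1 CPM against 68.1, 67.3 and 73.8 CPM.

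The change of the toxin effect between the days was tested directly. edgeR called 0 of 58 members for the difference of main effects (0% of all genes), with 0 higher and 15 lower at an unadjusted p under 0.05 (4.6% and 15%). DESeq2 called 0 with 16 at that level, and its share of all genes there is not given, so the 16 do not set the members apart. The median difference was -0.33, and 0.09 without the 3 libraries. Without vehicle day 3 replicate 1 edgeR called 13 members, all lower, beside 12.3% of all genes.

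Other translation genes were read from 7 lists holding 65 genes, all tested. In the day 0 comparisons none of them was called by edgeR. In the D2C7-IT main effect at day 3, 3 were called higher and 10 lower, where 5.11% and 13.1% of all genes were. The list of eIF2 kinases and phosphatase had 1 higher and 1 lower of 9. Ppp1ca, a phosphatase gene of that list, was lower in each toxin-treated tumour than in each other day 3 tumour. It measured 240, 363 and 380 CPM in vehicle, 374, 224 and 236 CPM in αCD40, 186, 166 and 199 CPM in D2C7-IT and 162, 188 and 181 CPM in combination tumours. Of the 22280 genes tested, 97 were lower without overlap. The genes called lower are not all named here. Among the other elongation factors and Eef2 regulators 1 was higher and 2 lower of 11, and among the mTOR and MNK genes 1 higher and 2 lower of 14. In the lists of termination, poly(A)-binding and polyamine genes 1 was lower of 8, 5 and 9, and of the mitochondrial factors 2 were lower of 9.

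Ppp1r15a, which encodes the stress-induced subunit that directs a phosphatase to eIF2 alpha, was higher in most, though not all, toxin-treated tumours. At day 3 it measured 13.1, 18.1 and 17.5 CPM in vehicle, 21.2, 11.3 and 14.6 CPM in αCD40, 77.6, 56.1 and 36.2 CPM in D2C7-IT and 20.4, 115 and 78.4 CPM in combination tumours. It rose by 1.99 ± 0.36 on the log2 scale (adjusted p = 0.00828, edgeR), and without the 3 libraries the difference was 2.30 (adjusted p = 0.13). At day 0 it measured 39.4, 68.9 and 54.0 CPM after D2C7-IT against 13.8, 15.1 and 16.7 CPM in vehicle tumours, a difference of 1.83 ± 0.51 (adjusted p = 0.361). The day 0 combination tumours measured 12.9, 47.0 and 16.1 CPM, so 2 of those 3 lay below the highest vehicle value. Each D2C7-IT tumour lay above each vehicle tumour on both days. At day 3 combination replicate 1 lay under αCD40 replicate 1, so the toxin-treated and other tumours overlapped.

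Eef2k, the kinase gene for eEF2, was called higher by 0.59 ± 0.18 (adjusted p = 0.0322, edgeR), and by 0.45 (adjusted p = 0.433) without the 3 libraries. At day 3 it measured 39.7, 35.4 and 27.9 CPM in vehicle, 32.8, 38.1 and 46.3 CPM in αCD40, 64.2, 96.7 and 40.3 CPM in D2C7-IT and 37.3, 55.2 and 44.4 CPM in combination tumours. The groups overlapped, and D2C7-IT replicates 1 and 2 were the highest. At day 0 Eef2k was not higher after D2C7-IT, at 39.0, 34.3 and 45.8 CPM against 49.5, 39.5 and 55.0 CPM in vehicle tumours. The day 0 combination tumours measured 62.8, 55.2 and 42.4 CPM for this gene. Rheb, the mTOR activator gene, was called higher by 0.46 ± 0.11 (adjusted p = 0.0191, edgeR), and by 0.42 (adjusted p = 0.253) without the 3 libraries. It measured 101.1, 95.8 and 95.1 CPM in vehicle, 93.8, 102 and 103 CPM in αCD40, 190.5, 120.2 and 102 CPM in D2C7-IT and 136, 142 and 123 CPM in combination tumours. All but D2C7-IT replicate 3 of the toxin-treated tumours lay above the others. Pabpc1, which encodes the main cytoplasmic poly(A)-binding protein, fell by 1.09 ± 0.36 and was higher by 0.33 without the 3 libraries, the same turn as in most members. Eef2, which encodes the substrate of the toxin, measured 1383, 1385 and 1283 CPM in day 0 vehicle and 1373, 1169 and 1183 CPM in day 0 D2C7-IT tumours. Its main effect at day 3 was -0.34 ± 0.15 (adjusted p = 0.122, edgeR), and 0.09 without the 3 libraries.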

How the data were processed

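The deposited files are 6 tables of read counts per gene, 36 columns in all, of which 12 repeat a column of another table exactly; the 24 tumours were taken from them by tumour number. The submitters' processing notes name featureCounts, Subread 1.5.2, the aligner STAR 2.5.2b, Trimmomatic 0.36, bcl2fastq 2.17 and the build GRCm38. Neither an annotation release nor a strand setting of the counter is given in the sources used here. Gene identifiers were named with GENCODE M21 (49056 of 49315 matched). The protocol's library kit does not mark strand, so overlapping genes on opposite strands cannot be told apart.

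Counts as deposited were tested in R 4.3.3 with edgeR 4.0.16 (TMM, filterByExpr with its minimum count of 10, robust quasi-likelihood test, 1 mean per group over 24 libraries, 16 residual degrees of freedom) and adjusted by Benjamini-Hochberg over the 22280 genes tested; called means an adjusted p under 0.05. CPM are TMM-scaled, and CPM per kb divides by the pooled exon length. Two-sided tests of 17 comparisons were run. The script for the test was tested on simulated data. No simulated library stood apart from its group, so that check does not cover the mix of libraries at day 3. Each sample carries a tumour number of its own in the labels, which give 3 tumours a group, and p-values measure the spread between these tumours; no 2 libraries of a group agreed within sampling noise (smallest chi-square per degree of freedom 20.2, where sampling noise gives 1). Precision is limited by 3 tumours a group.

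Alternatives were RLE size factors, no low count filter, a replicate block, only the groups compared, DESeq2 1.42.0, each library left out, and the 3 high-Egfr libraries left out. For day 0 comparisons the last was added after seeing the data. The members, roles, paralogue pairs, lists and markers were chosen with earlier results of these data known. Named are the called members or, with none, up to 6 of smallest p in each direction, a fixed set (Eef1a1, Eef1a2, Eef1b2, Eef1d, Eef1g, Eif4a1, Eif4a2, Eif4e, Eif4g1, Eif4ebp1, Eif4ebp2, Eif5a, Eif5a2, Eif2s1, Eif2s2, Eif2s3x, Eif2s3y, Eif3a, Eif1, Eif1b, Eif6), the paralogue pairs and extremes; other members named for groups that did not overlap were picked after their values were seen. Promoters are from RefSeq (GRCm38.p6); protein sequences were not used here. Of the marker lists, muscle, microglia, neutrophil and endothelial had 1 gene each above all 21 libraries in the 3, and oligodendrocyte, erythroid and Y-linked none; 3 of 7 astrocyte and 1 of 7 endothelial markers were below all 21, and Xist was above.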

Additional observations from a re-analysis of the deposited data

How the results depend on the processing

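In the D2C7-IT main effect at day 3, the count of 12 called members was 12 with RLE size factors and 16 with DESeq2, 6 with no low count filter, 4 with a replicate block, and 0 with only the groups compared or without the 3 high-Egfr libraries. Leaving out 1 library gave 0 to 37. The shares of all genes called in these alternative settings are not given, so the counts do not set the members apart from other genes. Without the 3 libraries the estimates of 7 of the 12 changed sign, most of them to values near 0. They were Eif4g2 0.0595, Eif4ebp2 0.0486, Eif4ebp1 0.75, Eif5a 0.12, Eif4a3 0.0458, Eef1d 0.064 and Eef1g 0.0116 (log2). That setting removes 3 of the 6 day 3 libraries without toxin, and the cause was not tested. DESeq2 called 5 members for D2C7-IT against vehicle at day 3 and 2 for the combination. It called 5 for vehicle day 3 against day 0, and edgeR called 0 in each of these comparisons. The cause was not tested, and the shares of all genes that DESeq2 called are not given. Leaving out 1 library gave 0 to 38 for D2C7-IT, 0 to 34 for the combination and 0 to 14 for αCD40 against vehicle at day 3, 0 to 43 for vehicle day 3 against day 0, and 0 to 13 for the difference of main effects. In the other 11 comparisons no alternative called a member. Replicate numbers were not treated as pairs: same-numbered samples correlated at -0.913 to 0.463, and in 0 of 14 comparisons was every pair over 0.1. The block lowered the day 3 count to 4 and left all other counts at 0. With 3 tumours a group, 3 high-Egfr libraries in the day 3 groups without toxin, and rare members such as Eef1akmt3, small differences were not detectable.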

Other observations

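Among the 21 libraries without high Egfr, the members differed widely in how much they varied. The steadiest were Eif4e2, an eIF4E relative, with a coefficient of variation of 4.32% (54.0 to 62.9 CPM) and Eif3h with 4.94% (107 to 128 CPM). Of the members with a median above 10 CPM, Eif6 varied most, at 28.9% (38.1 to 98.0 CPM), and Eif4ebp1 varied by 38.9% around a median of 5.26 CPM. Eef1akmt3 had 57.1%, with 0 to 42 counts a library over all 24. For 21 of the 58 tested members the highest of the 21 libraries was D2C7-IT day 3 replicate 1, and for 7 it was combination day 3 replicate 2; no other library was highest for more than 4. D2C7-IT day 3 replicate 1 was the lowest for 0 members. αCD40 day 0 replicate 1 was the lowest of the 21 for 8 members and the highest for 0. The same counts were not made over all genes, so they show no trait of the members as against other genes.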
